A study of Canis lupus familiaris and Dasypus novemcinctus and Ornithorhynchus anatinus with 3 samples.

Results

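The 10 genes of the stromal extracellular matrix described here encode no collagen and were measured by mRNA sequencing in the endometrium, the lining of the uterus, of 3 pregnant mammals. They are FN1, FBLN1, FBN1 and ELN of the fibronectin and elastic fibre networks, POSTN, SPARC and THBS4, which are matricellular proteins, and DCN, LUM and BGN, which are small leucine-rich proteoglycans. These 10 of 17465 gene symbols were picked because earlier results of the same tables showed them with opposite species patterns, so their levels are given as a description. The pregnant dog and the pregnant armadillo are eutherian (placental) species and the platypus lays eggs; each gave 1 library. Neither the stage of pregnancy, the number of animals, their age nor a treatment is given in the labels. With 1 library per species no difference had a replicate check, no p-value was computed, and intervals cover counting error only.

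The matrix of connective tissue is built by fibroblasts and smooth muscle cells. Fibronectin fibrils are laid down early and act as a scaffold on which collagen and fibrillin assemble, fibulins and elastin join the fibrillin microfibrils, and small proteoglycans bind collagen fibrils and limit their thickness. Matricellular proteins are secreted into this network but act mainly on cells and on the assembly of the other components. In the uterus of mammals such as mouse and human, the stroma remodels this network in pregnancy, when stromal cells become decidual cells.

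The dog table summed to 13625468 reads over 19290 genes, the armadillo table to 13218476 over 12335 and the platypus table to 2243556 over 18481. Levels are CPM (reads scaled to the table's total) times a median-of-ratios factor, called normalised CPM. On this scale 1 read equals 0.0585 in dog, 0.0754 in armadillo and 0.535 in platypus. Of the 10 genes, 6 were listed under their symbol in dog, 9 in armadillo and 7 in platypus. Only POSTN, SPARC, FBLN1 and LUM, 4 genes, were listed in all 3. In dog, FN1, DCN and BGN appeared under the UniProt entry names FINC_CANFA, PGS2_CANFA and PGS1_CANFA, and these values are named as such below. FBN1 was not matched in dog, BGN not in armadillo, and FN1, THBS4 and ELN not in platypus. Genes without reads are left out of the armadillo table, and absence from it was not counted as 0. The dog and platypus tables list 21.8% and 42.4% of genes at 0, among them genes that every cell uses (EEF2 in dog), so a gene at 0 is said only to be listed at 0. Of 7 markers of the uterus, the homeobox genes MSX1 and EMX2 were measured in all 3 tables. MSX1 had normalised CPM of 2.52 (dog), 2.41 (armadillo) and 772 (platypus), and EMX2 19.9 (dog), 29.9 (armadillo) and 74.9 (platypus). The estrogen receptor gene ESR1 stood at 6.55 in dog and 1147 in platypus, and the homeobox gene MSX2 at 25.1 in armadillo and 146 in platypus. The progesterone receptor gene PGR was matched only in platypus, at 349 normalised CPM.

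Among the libraries in which they were measured, FN1, FBLN1 and FBN1 were highest in armadillo, and ELN had reads in armadillo but was listed at 0 in dog. FN1 (ENSDNOG00000000626), whose product links cells to the matrix, had 22771 reads in dog under its entry name (ENSCAFG00000014345) and 291820 reads in armadillo. On the normalised CPM scale the dog level was 1332 (95% interval 1315 to 1349) and the armadillo level 22005 (95% interval 21926 to 22085), 16.5-fold (95% interval 16.3 to 16.7) lower in dog. FN1 alone took 0.167% (exact 95% interval 0.165 to 0.169) of all reads in dog and 2.21% (exact 95% interval 2.20 to 2.22) in armadillo.

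FBLN1 encodes fibulin-1, a calcium-binding glycoprotein of fibronectin and elastic fibres. It had 3505 reads in dog, 37449 reads in armadillo and 6 reads in platypus, or 205, 2824 and 3.21 normalised CPM. The dog level was 13.8-fold (95% interval 13.3 to 14.3) lower than in armadillo and 63.9-fold (95% interval 29.3 to 174) higher than in platypus. The armadillo level was 879.9-fold (95% interval 404 to 2398) higher than in platypus. The 3 libraries thus stood in the order armadillo, dog, platypus, with intervals that did not overlap. FBN1, the gene of fibrillin-1, the main protein of microfibrils, was measured in armadillo at 10519 reads and in platypus at 6 reads. The levels were 793 (95% interval 778 to 809) and 3.21 (95% interval 1.18 to 6.99) normalised CPM. ELN, the gene of the elastic protein elastin, was listed at 0 in dog and had 3440 reads, or 259 (95% interval 251 to 268) normalised CPM, in armadillo.

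**Figure D1:**
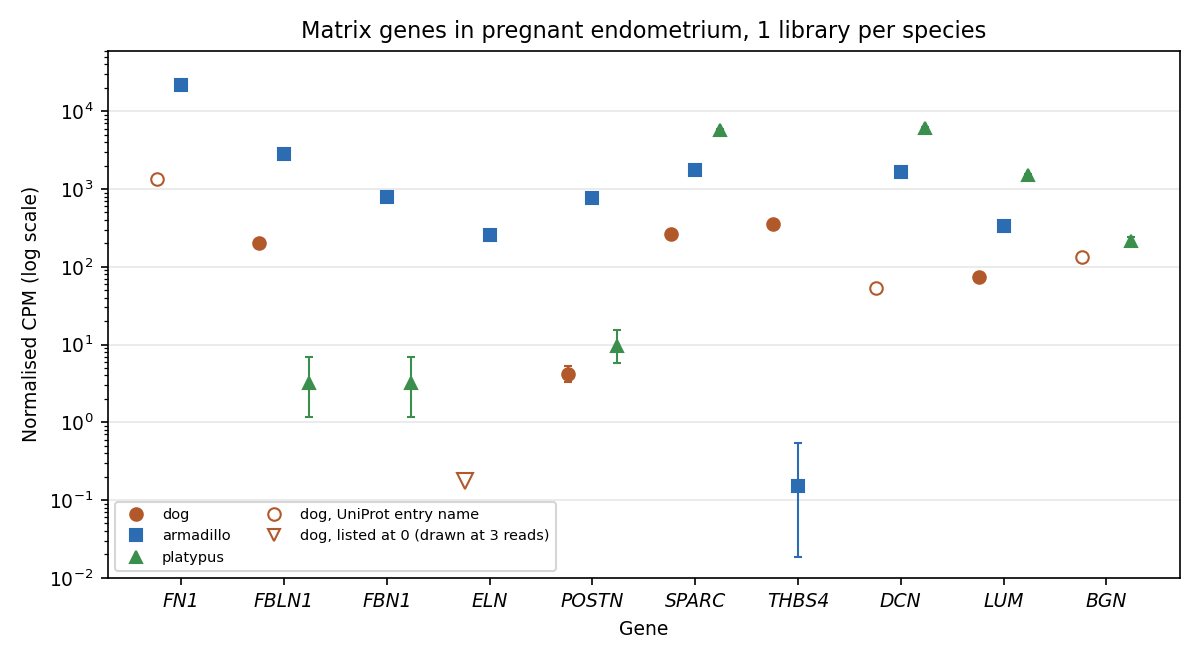
Normalised CPM (vertical axis, log scale) of the 10 matrix genes (horizontal axis) in the dog, armadillo and platypus libraries. Points are single libraries, bars are exact 95% Poisson intervals, open circles are dog genes listed under a UniProt entry name, and the open triangle marks a dog gene listed at 0, drawn at 3 reads. FBLN1 runs from 2824 in armadillo to 3.21 in platypus, while DCN, LUM and SPARC are highest in platypus.

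The 3 matricellular genes each had another pattern. POSTN encodes periostin, a protein of fibroblasts that binds collagen and integrins. It had 72 reads in dog, 10079 reads in armadillo and 18 reads in platypus. Its normalised CPM was 4.21 (95% interval 3.30 to 5.30) in the dog library, 760.0 (745 to 775) in the armadillo library and 9.63 (5.71 to 15.2) in the platypus library. Only armadillo was high. Its level was 78.9-fold (95% interval 49.9 to 133) above that of platypus. The dog level was 2.29-fold (95% interval 1.28 to 3.87) lower than the platypus level, below the 4-fold limit used here.

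SPARC encodes osteonectin, which binds collagen and calcium. It had 4472 reads in dog, 23118 reads in armadillo and 10873 reads in platypus, or 262, 1743 and 5816 normalised CPM. Platypus was highest and dog lowest, with intervals that did not overlap. The dog level was 6.66-fold (95% interval 6.45 to 6.88) lower than in armadillo and 22.2-fold (95% interval 21.5 to 23.0) lower than in platypus. The armadillo level was 3.34-fold (95% interval 3.26 to 3.41) lower than in platypus.

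THBS4 encodes thrombospondin-4, a pentameric glycoprotein best known from tendon, muscle and heart. It had 6034 reads in dog, 353 (95% interval 344 to 362) normalised CPM, and 2 reads in armadillo, 0.151 (95% interval 0.0183 to 0.545). The ratio of dog over armadillo was 2340.3 with a counting interval from 648 to 19329. It was the single gene among the 6 measured under their symbol in both eutherians that was higher in dog. The 3 other thrombospondins measured in dog and armadillo did not follow it. THBS1 stood at 109 normalised CPM in dog and 1388 in armadillo, THBS3 at 1.99 and 248, and THBS2 had 1 read in dog and 2166 reads in armadillo.

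DCN and LUM were highest in platypus and lowest in dog, while BGN differed little between dog and platypus. DCN encodes decorin, which binds collagen fibrils and transforming growth factor beta. It had 914 reads in dog under its entry name (ENSCAFG00000006142), 22043 reads in armadillo and 11440 reads in platypus. Its normalised CPM was 53.5 (95% interval 50.1 to 57.0) in the dog library, 1662 (1640.3 to 1684) in the armadillo library and 6119.5 (6008 to 6233) in the platypus library. The dog level was 31.1-fold (95% interval 29.1 to 33.3) lower than in armadillo and 114-fold (95% interval 107 to 123) lower than in platypus. In platypus DCN took 0.51% (exact 95% interval 0.501 to 0.519) of all reads.

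LUM encodes lumican, which also regulates collagen fibrils. It had 1245 reads in dog, 4396 reads in armadillo and 2804 reads in platypus, or 72.8, 331 and 1499.9 normalised CPM. It ran in the same order as DCN. The dog level was 4.55-fold (95% interval 4.27 to 4.85) lower than in armadillo and 20.6-fold (95% interval 19.3 to 22.0) lower than in platypus. Its difference between dog and armadillo fell below the 4-fold limit under other scalings, with a log2 fold of -1.85 with plain CPM and -1.79 with totals over matched genes instead of -2.17. BGN encodes biglycan, the closest relative of decorin. It had 2288 reads in dog under its entry name (ENSCAFG00000019189) and 407 in platypus, or 134 (95% interval 128 to 139) and 218 (95% interval 197 to 240) normalised CPM. The dog level was 1.63-fold (95% interval 1.46 to 1.81) lower than in platypus, and without scaling the log2 fold of dog over platypus was -0.11 instead of -0.70.

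A gene was called different where the log2 fold, with 1 normalised CPM added to each level, reached 2 (4-fold) and the higher library reached 5 normalised CPM. Between dog and armadillo, 6 of the 10 genes were measured under their symbol, of which 1 (THBS4) was called higher in dog and 5 lower. One of the 5 is ELN, listed at 0 in dog, and without it 4 were called lower (POSTN, SPARC, FBLN1 and LUM). Of all 8908 genes matched in that pair, 9.76% were called higher in dog and 15.2% higher in armadillo. With the dog entry names 8 genes were measured, and 7 of them were called lower in dog, or 6 without ELN. Between dog and platypus 4 genes were measured under their symbol, with FBLN1 called higher in dog and SPARC and LUM called lower. The shares of all 9073 matched genes were 27.3% higher in dog and 13.5% higher in platypus. With the dog entry names 6 genes were measured, and 3 of them were called lower in dog (SPARC, LUM and DCN). Between armadillo and platypus 6 genes were measured. FBLN1, FBN1 and POSTN were called higher in armadillo and LUM lower, beside 34.0% and 13.2% of all 7296 matched genes. Since the genes were picked from these same levels, nothing is read from their counts against these shares. The call of LUM was lost with plain CPM (log2 fold of armadillo over platypus -1.91 instead of -2.17) and with totals over matched genes (-1.98), and with upper-quartile scaling SPARC (-2.24) and DCN (-2.38) were called as well. The 3 comparisons share libraries and are not independent. A gene without armadillo reads is not in that table, so it could not be called lower in armadillo. Genes at 0 in the other library were kept, 529 of 8908 with dog and 1903 of 7296 with platypus. Calls in the pairs with armadillo, here and in the lists below, therefore lean toward armadillo.

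**Figure D2:**
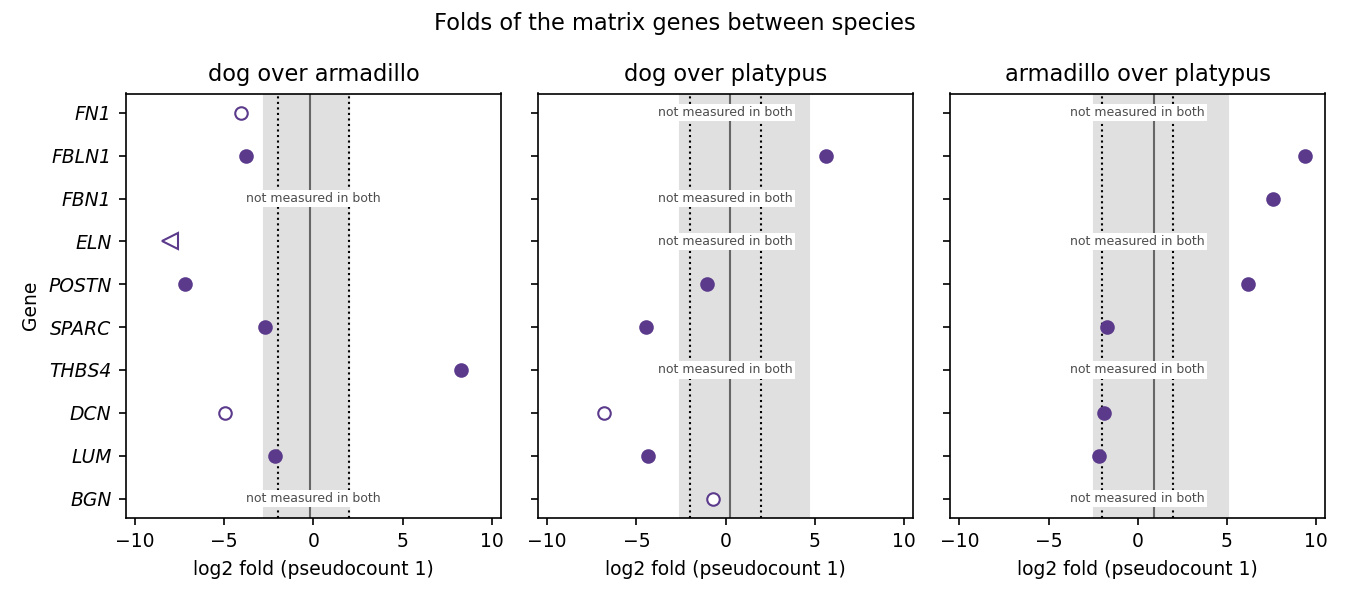
Log2 folds (horizontal axis, 1 normalised CPM added to each level) of the 10 matrix genes (vertical axis) for dog over armadillo, dog over platypus and armadillo over platypus. Dotted lines mark 4-fold, the grey band spans the 10th to 90th percentile of all matched genes with their median as a line, open circles use a dog entry name and the open triangle is a gene listed at 0 in dog. THBS4 lies far to the dog side, and FBLN1, FBN1 and POSTN far to the armadillo side of armadillo over platypus.

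Shares of a set of genes within a library do not depend on scaling between libraries. They were taken over the 5 genes measured in all 3, with the dog entry name for DCN. FN1, FBN1, THBS4, ELN and BGN are left out, so the shares do not describe the whole matrix. FN1 alone had 22771 reads in dog against 10208 for the 5 genes, and 291820 against 97085 in armadillo. Together the 5 genes held 0.0749% of dog reads, 0.734% of armadillo reads and 1.12% of platypus reads. SPARC made up 43.8% (exact 95% interval 42.8 to 44.8) of their reads in dog, 23.8% (23.5 to 24.1) in armadillo and 43.2% (42.6 to 43.9) in platypus, so its share in dog and platypus did not differ beyond counting error. DCN made up 8.95% (8.41 to 9.52) in dog, 22.7% (22.4 to 23.0) in armadillo and 45.5% (44.9 to 46.1) in platypus. FBLN1 made up 34.3% (33.4 to 35.3) in dog, 38.6% (38.3 to 38.9) in armadillo and 0.0239% (0.00876 to 0.0519) in platypus. LUM held 12.2% in dog, 4.53% in armadillo and 11.2% in platypus. POSTN held 0.705% in dog, 10.4% in armadillo and 0.0716% in platypus. These are shares of reads and are compared here for the same gene between libraries, since longer genes yield more reads. The annotated length of a gene can still differ between species. Any such difference enters these shares, the folds above and the ratio of DCN to LUM reads, and was not tested. The ratio of DCN to LUM reads was 0.734 (95% interval 0.673 to 0.800) in dog, 5.01 (95% interval 4.85 to 5.18) in armadillo and 4.08 (95% interval 3.91 to 4.25) in platypus.

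**Figure D3:**
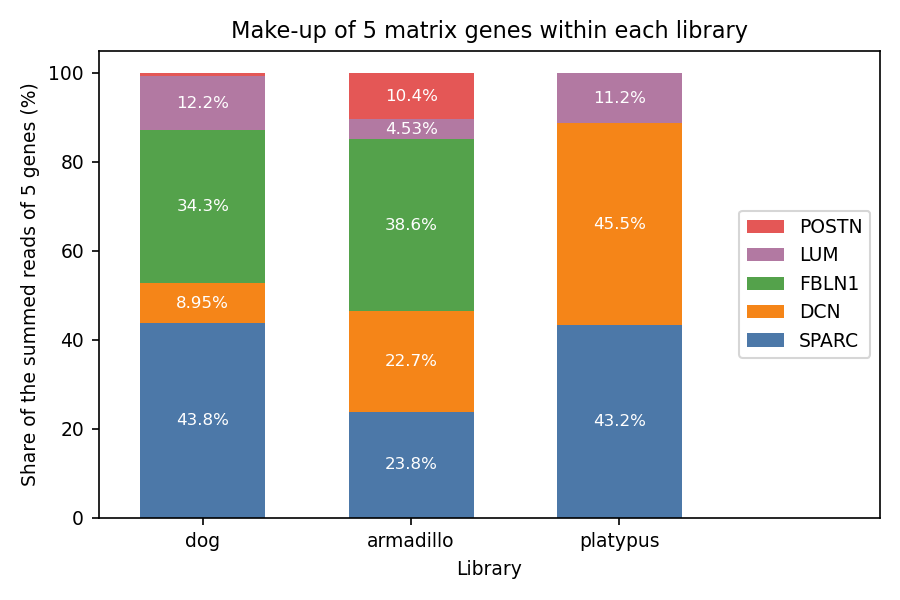
Shares (vertical axis, percent) of SPARC, DCN, FBLN1, LUM and POSTN in their summed reads within the dog, armadillo and platypus libraries (horizontal axis). DCN holds 8.95% in dog, 22.7% in armadillo and 45.5% in platypus, while FBLN1 holds 34.3%, 38.6% and 0.0239%.

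Levels of different genes can be compared only per gene length. The dog table holds a relative abundance that is proportional to reads divided by a gene length. In dog this abundance was 219 for SPARC, 132 for FN1, 97.3 for THBS4, 73.8 for BGN, 59.1 for FBLN1, 48.6 for LUM, 33.9 for DCN and 1.30 for POSTN. SPARC, FN1 and THBS4 stood above the 95th percentile of all dog genes, and POSTN at the 43.5th. Among thrombospondins in dog, THBS4 was followed by THBS1 at 22.9, COMP at 1.52, THBS3 at 0.536 and THBS2 at 0.0129. Collagen gene COL3A1 stood at 120.3 on the same scale.

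For armadillo and platypus, which have no lengths in their tables, the dog gene lengths were used as a stand-in, and each gene was set against SPARC of the same library. On this scale FN1 stood at 0.604 (95% interval 0.585 to 0.624) of SPARC in dog and 1.497 (95% interval 1.477 to 1.517) in armadillo, where it led. DCN stood at 0.155 of SPARC in dog, 0.722 in armadillo and 0.797 in platypus. The value of FBLN1 was 0.270 of SPARC in dog, 0.558 in armadillo and 0.00019 in platypus. Per length SPARC was thus the highest of the 5 genes with values in all 3 libraries, followed by FBLN1 in dog and by DCN in armadillo and platypus. Of the other 4, LUM varied least, at 0.222 in dog, 0.152 in armadillo and 0.205 in platypus. THBS4 stood at 0.444 in dog and 2.85e-05 in armadillo. BGN stood at 0.337 in dog and 0.0247 in platypus. These values also contain any difference between species in the length of the gene model, which was not tested.

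**Figure D4:**
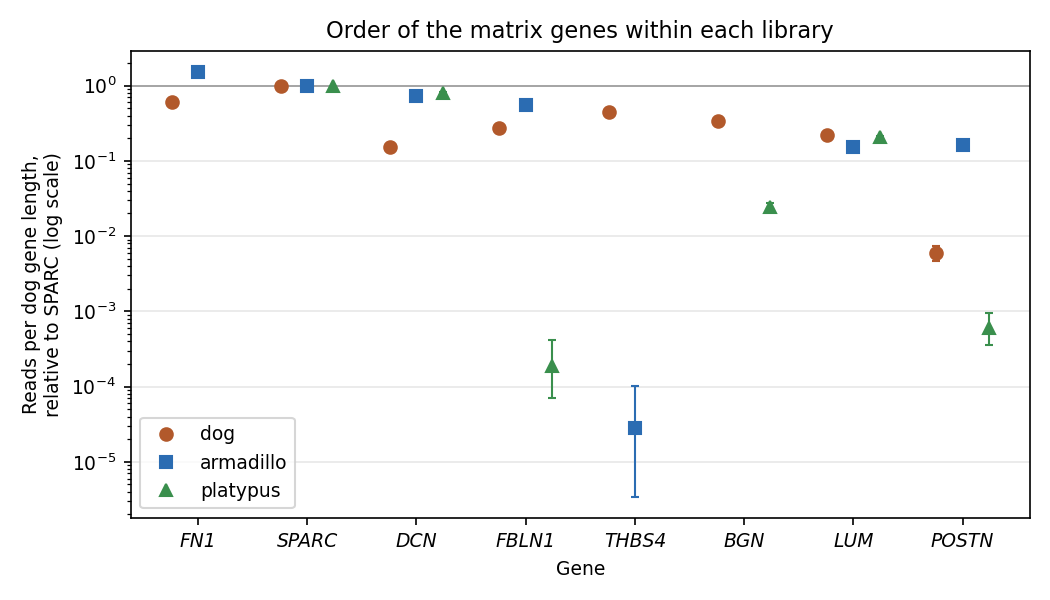
Reads per dog gene length relative to SPARC of the same library (vertical axis, log scale) for 8 matrix genes (horizontal axis) in dog, armadillo and platypus. Bars are exact 95% counting intervals, and the grey line is the level of SPARC. FN1 stands above SPARC in armadillo at 1.497, LUM lies between 0.152 and 0.222 in the 3 libraries, and FBLN1 is near the bottom in platypus.

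Other genes of the matrix were counted from lists that do not contain the 10 genes. Among other small leucine-rich proteoglycans, 8 of 10 were measured in dog and armadillo, with 0 called higher in dog and 3 lower. Over all matched genes 9.76% were called higher in dog and 15.2% lower. In dog and platypus 8 were measured, with 0 called higher in dog and 4 lower, against 27.3% and 13.5% of all matched genes. In armadillo and platypus 6 were measured, with 2 called in each direction, against 34.0% higher and 13.2% lower in armadillo over all matched genes. OGN, the gene of osteoglycin, was high in platypus like DCN and LUM, with 10 reads in dog, 16 reads in armadillo and 464 reads in platypus. In normalised CPM these were 0.585, 1.21 and 248. ASPN (asporin) went the other way, at 0.468 in dog, 60.9 in armadillo and 10.2 in platypus. FMOD (fibromodulin), measured in dog and armadillo, stood at 0.643 and 50.6. PODN (podocan) was within 4-fold in every pair, at 61.4 in dog, 79.0 in armadillo and 31.0 in platypus. OMD (osteomodulin) stood at 0.0585 (1 read) in dog, 0.528 in armadillo and 6.95 in platypus. PRELP (prolargin), measured in dog and platypus, stood at 0.760 and 31.6, and ECM2 at 1.05 in dog, 34.5 in armadillo and 2.67 in platypus.

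Among other elastic fibre and microfibril genes, 11 of 18 were measured in dog and armadillo, with 0 called higher in dog and 6 lower. Over all matched genes 9.76% were called higher in dog and 15.2% lower. Of 8 measured in dog and platypus, 2 were called higher in dog and 5 lower, against 27.3% and 13.5% of all matched genes. Of 7 in armadillo and platypus, 3 were called higher in armadillo and 1 lower, against 34.0% and 13.2%. FBLN5, a fibulin needed for elastic fibres in mice, had the species order of FBLN1, with normalised CPM of 107.5 (dog), 445 (armadillo) and 5.88 (platypus). EFEMP1, the gene of fibulin-3, did not, at 0.994 in dog, 356 in armadillo and 89.3 in platypus. MFAP2, a microfibril protein, was higher in platypus, at 7.55 in dog, 3.09 in armadillo and 117 in platypus. The latent transforming growth factor binding protein gene LTBP2 stood at 19.8 in dog and 628 in armadillo, and LTBP1 at 1503 in armadillo and 57.8 in platypus. LTBP4, of the same family, stood at 4.21 in dog and 325 in platypus. EMILIN2, a glycoprotein of elastic fibres, was highest in dog, at 134 against 53.1 in armadillo and 2.14 in platypus. The collagen and elastin cross-linking enzyme gene LOXL2 stood at 57.5 in dog and 734 in armadillo.

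Other matricellular genes were mostly higher in armadillo, like POSTN. Of 18 listed, 14 were measured in dog and armadillo, with 0 called higher in dog and 11 lower, against 9.76% and 15.2% of all matched genes. Of 12 measured in armadillo and platypus, 10 were called higher in armadillo and 0 lower, against 34.0% and 13.2% of all matched genes. Without SPP1, listed at 0 in platypus, 9 were called. Over all matched genes, 1336 were called higher in armadillo without genes at 0, instead of 2484. Of 14 measured in dog and platypus, 0 were called higher in dog and 2 lower, against 27.3% and 13.5% of all matched genes. The median log2 fold was -4.55 for dog over armadillo, beside -0.20 over all matched genes, and -0.62 for dog over platypus, beside 0.25. With genes at 0 set to 3 reads, the median for dog over platypus was -0.64, beside -0.16 over all matched genes, so that the median of all matched genes changed sign. For armadillo over platypus it was 4.62, or 3.93 with genes at 0 set to 3 reads, beside 0.89 or 0.58 over all matched genes. TNC, the gene of tenascin-C, had normalised CPM of 5.67 (dog), 4029.9 (armadillo) and 36.4 (platypus). SPARCL1, the closest relative of SPARC, stood at 63.6 in dog, 1681 in armadillo and 54.6 in platypus. It did not share the high platypus level of SPARC. NOV, a CCN family gene, had 1 read in dog, 6278 reads in armadillo and 2 reads in platypus. TNXB (tenascin-X), measured in dog and platypus, stood at 2.63 and 43.3.

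Among large proteoglycans and other matrix glycoproteins, 8 of 14 were measured in dog and armadillo, with 0 called higher in dog and 4 lower. Over all matched genes 9.76% were called higher in dog and 15.2% lower. VCAN, the gene of versican, had 431 reads in dog, 20623 reads in armadillo and 1 read in platypus, or 25.2, 1555 and 0.535 normalised CPM. MATN2 (matrilin-2) stood at 16.3 in dog and 641 in armadillo. HSPG2, the gene of the basement membrane proteoglycan perlecan, stood at 2603 in armadillo and 93.6 in platypus. In dog and platypus 2 of 7 were called higher in dog and 1 lower, against 27.3% and 13.5% of all matched genes. In armadillo and platypus 2 of 7 were called higher in armadillo and 0 lower, against 34.0% and 13.2%. AGRN (agrin) was 6.32-fold (95% interval 5.49 to 7.32) higher in dog than in platypus, and DPT (dermatopontin, which binds decorin) 6.04-fold (95% interval 5.36 to 6.81) lower.

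**Figure D5:**
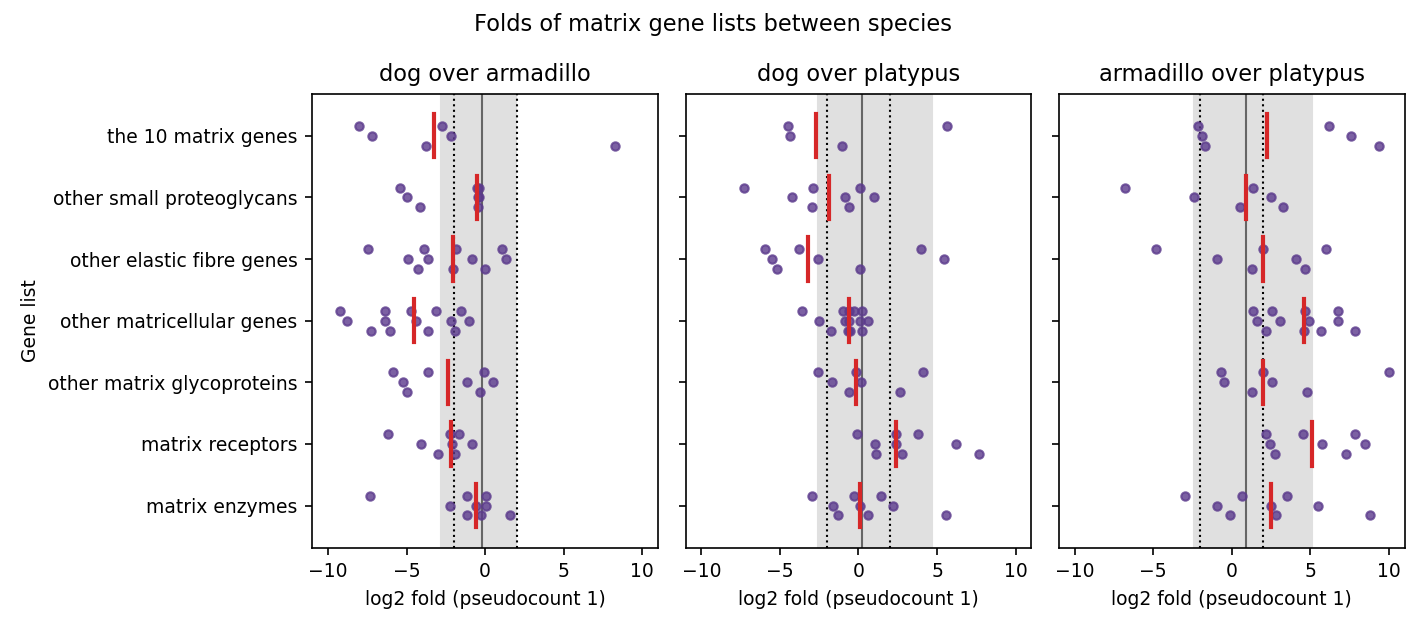
Log2 folds (horizontal axis) of single genes (points) in the 10 matrix genes and 6 other matrix lists (vertical axis), for dog over armadillo, dog over platypus and armadillo over platypus. Red bars are list medians, dotted lines mark 4-fold, and the grey band spans the 10th to 90th percentile of all matched genes. The other matricellular genes have a median of -4.55 for dog over armadillo and 4.62 for armadillo over platypus.

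Cell surface receptors of these proteins were also compared. Of 8 measured in dog and armadillo, 0 were called higher in dog and 5 lower, against 9.76% and 15.2% of all matched genes. Of 9 measured in dog and platypus, 5 were called higher in dog and 0 lower, against 27.3% and 13.5% of all matched genes. Platypus listed 4 of the 9 at 0, and without these 2 were called higher in dog. Over all 9073 matched genes, 3108 were at 0 in dog or platypus. Without them 1337 were called higher in dog, instead of 2474. All 8 measured in armadillo and platypus were called higher in armadillo, against 34.0% of all matched genes. Platypus listed 3 of these at 0 (ITGB3, ITGA8 and ITGA4), which leaves 5. Over all 7296 matched genes, 1903 were at 0 in platypus. Without them 1336 were called higher in armadillo, instead of 2484. SDC4 (syndecan-4) stood at 74.1 in dog and was listed at 0 in platypus. ITGA5 and ITGB1 encode the subunits of the main fibronectin receptor. ITGA5 had normalised CPM of 63.8 (dog), 1082 (armadillo) and 3.74 (7 reads, platypus), and ITGB1 at 241 in dog, 1150 in armadillo and 254 in platypus. ITGA5 thus had the species order of FBLN1, while ITGB1 in dog and platypus did not differ beyond counting error on the scale used. This likeness depends on the scaling, since plain CPM moved log2 folds of dog over platypus by 0.59 and upper-quartile scaling by -0.42. ITGA9 stood at 4.45 in dog, 396 in armadillo and 1.60 (3 reads) in platypus. Among enzymes that fold, cross-link or export matrix proteins, 0 of 9 were called higher in dog than in armadillo and 2 lower. Over all matched genes 9.76% were called higher in dog and 15.2% lower. P4HB, a disulfide isomerase and subunit of collagen prolyl hydroxylase, stood at 1319.7 in dog, 1246 in armadillo and 27.3 in platypus. SERPINH1, the collagen chaperone, stood at 246 in dog, 1172 in armadillo and 755 in platypus. SEC23A, of the vesicle coat that exports collagen, stood at 79.7 in dog, 77.7 in armadillo and 628 in platypus. TGM2, a transglutaminase that cross-links fibronectin, stood at 1.70 in dog and 437 in armadillo and was listed at 0 in platypus. For these enzymes 2 of 9 were called higher in dog than in platypus and 1 lower, against 27.3% and 13.5% of all matched genes. Between armadillo and platypus 5 of 9 were called higher in armadillo and 1 lower, against 34.0% and 13.2%. P4HA2, another subunit of collagen prolyl hydroxylase, stood at 79.8 in dog, 120 in armadillo and 16.6 in platypus.

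Markers of other cell types moved between the same libraries. Of 8 smooth muscle markers, the 2 measured in dog and armadillo (MYH11 and TAGLN) summed to 18.6 normalised CPM in dog and 21732 in armadillo. The 3 measured in dog and platypus summed to 19.1 in dog and 5145 in platypus, and the 3 in armadillo and platypus to 14079 in armadillo and 15085 in platypus. These like sums hold genes that differ in opposite directions. MYH11, smooth muscle myosin, stood at 1.29 in dog, 10768 in armadillo and 332 in platypus, while ACTA2, smooth muscle actin, stood at 161 in armadillo and 13562 in platypus. CNN1 stood at 0.175 in dog and 1378 in platypus, and MYL9 at 17.7 in dog and 3435 in platypus. Of 8 epithelial markers, 3 measured in dog and armadillo (EPCAM, KRT7 and ST14) summed to 2025 in dog and 549 in armadillo, and the 4 in dog and platypus to 2188 in dog and 5.88 in platypus, with ST14 listed at 0 in platypus. CLDN4 stood at 163 in dog and 2.67 in platypus, and KRT18 was matched only in armadillo, with 3705 reads. The 4 in armadillo and platypus summed to 555 in armadillo and 8.02 in platypus. Of 8 endothelial markers, 2 measured in dog and armadillo summed to 9.77 in dog and 565 in armadillo, and 3 in dog and platypus to 33.2 in dog and 44.4 in platypus. In armadillo and platypus 4 summed to 2488 in armadillo, and all 4 were listed at 0 in platypus. VWF (1359) and TEK (429) were among these 4, and ESAM stood at 8.25 in dog and 444 in armadillo. EMCN stood at 1.52 in dog and 121 in armadillo, and CLDN5 at 0.234 in dog and 20.3 in platypus. Of 7 fibroblast and stroma markers, only COL3A1 was measured in all 3, at 426 in dog, 7598 in armadillo and 353 in platypus. COL1A2 stood at 4767 in armadillo and 1882 in platypus, and COL1A1 at 1889 and 9.09 (17 reads). VIM (vimentin) stood at 10198 in armadillo and 388 in platypus. THY1 stood at 472 in armadillo and was listed at 0 in platypus. The part of these cell types in the differences of the 10 matrix genes was not tested. In whole tissue, fewer cells of a type and less RNA per cell cannot be told apart, and species, animal and library cannot be told apart either.

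Genes with the most similar profile were sought among 3223 genes measured in all 3 tables that reached 50 normalised CPM in at least 1 library. Likeness was the Euclidean distance between log2 levels centred over the 3 libraries, which is a description over 3 points. For POSTN the nearest were CCDC136 (distance 0.279), THBS2 (0.442) and the collagen gene COL21A1 (0.505). CCDC136 had 8 reads in dog and 5 in platypus, and THBS2 had 1 read in each. The distances of CCDC136 and THBS2 thus depend on the 1 normalised CPM added to each level. COL21A1 had normalised CPM of 2.16 (dog), 299 (armadillo) and 3.21 (platypus). For SPARC they were FBXL7 (0.0254), RNF130 (0.221) and GPCPD1 (0.323), and for LUM WDR44 (0.208), GOT2 (0.219) and E2F6 (0.255). In dog FBXL7 stood at only 3.69 normalised CPM and WDR44 at 5.50. Their distances and first ranks thus depend in part on the added 1 normalised CPM. GOT2, a mitochondrial aminotransferase, stood at 32.5 in dog, 157 in armadillo and 581 in platypus. For FBLN1 they were PTRF (0.464), CAPN2 (0.524) and SCUBE2 (0.606), all listed at 0 in platypus, so that these distances depend on the added 1 normalised CPM.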

How the data were processed

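Pregnant endometrium of dog, armadillo and platypus was sequenced as mRNA, 1 library each. Per the labels' protocols, RNA was purified on columns with DNase treatment. The submitters' processing notes name Bowtie, and neither its version nor the genome builds and annotation are known from the labels. The dog file is a table of estimated counts, as the authors deposited them, and its 516 values that are not whole were rounded. The dog table also holds deposited scores (mapped bases and a relative abundance), per the file headers. That abundance was taken as reads per length because, for 100% of 5644 genes above 500 reads, reads over abundance came out as whole lengths (tolerance 0.1 bases) after division by a constant fitted to that end. The armadillo and platypus files hold raw counts per gene, as deposited. Lines of totals were left out.

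Genes were matched by upper-case symbols that occur once in a table, and 82 dog accessions were named from the dog RefSeq gene table (assembly UU_Cfam_GSD_1.0). Normalised CPM is CPM times a median-of-ratios factor (0.797 dog, 0.997 armadillo, 1.20 platypus) from the 3496 genes that reached 2 CPM in each of the 3 libraries. Ratios are of normalised CPM with exact 95% intervals given the summed counts, and single levels carry exact Poisson ones. Both treat reads as independent molecules, which PCR copies are not. The tables give no coordinates. Calls used a pseudocount of 1, 4-fold and 5 normalised CPM, and the calculation was tested on simulated counts. The 10 genes, the 14 other gene lists, the limits and the alternatives were chosen with earlier results of these data known. Genes named from a list were the 3 highest and, per pair and direction, the 2 largest called folds; THBS2, THBS3, COMP, SPP1, ITGA8, ITGA4 and EMX2 were named after their values were seen. Python 3.11.15, NumPy 2.4.6, pandas 2.3.3, SciPy 1.17.1 and Matplotlib 3.10.9 were used. No result was computed from replicates, since there were none.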

Additional observations from a re-analysis of the deposited data

Results flagged for a closer look

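Among dog genes, 3 entries that symbol matching does not use held reads far above the 3 reads that a count of 0 allows, under UniProt entry names of proteins of this group. FINC_CANFA (fibronectin, FN1) had 22771 reads, PGS2_CANFA (decorin, DCN) had 914 reads and PGS1_CANFA (biglycan, BGN) had 2288 reads. The symbol PGS1 also occurs in dog, where it names an enzyme of phospholipid synthesis and not biglycan.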

How the results depend on the processing

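No paired analysis was possible because each species has 1 library. Of the settings tried, only another scaling can turn the sign of a fold, and 0 of 60 values (20 folds of the 10 genes under 3 other scalings) changed sign. Relative to the scaling used, plain CPM moved log2 folds of all genes by 0.32 for dog over armadillo, 0.59 for dog over platypus and 0.27 for armadillo over platypus, upper-quartile scaling by 0.08, -0.42 and -0.50, and totals over matched genes by 0.39, 0.58 and 0.19. The summed level of the genes listed under their symbol was 897 in dog (6 genes), 30379 in armadillo (9 genes, with 22005 from FN1) and 13669 in platypus (7 genes). Over genes shared by a pair it was 897 in dog and 5918 in armadillo (6 genes), 544 in dog and 7329 in platypus (4 genes), and 8114 in armadillo and 13452 in platypus (6 genes), where the order of armadillo and platypus is the opposite. The sum over all listed genes was 1125, 30477.5 and 11390.0 with plain CPM, 841, 27012 and 17189 with upper-quartile scaling, 2424, 62710.0 and 24713 with totals over matched genes, and 2416 in dog with entry names added.

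Of the 10 genes, those called higher in dog than in armadillo fell to 0 when both libraries had to reach 2 CPM, and those lower in dog numbered 3 at 8-fold and 4 without ELN, which is at 0 in dog. Those called lower in armadillo than in platypus were 0 with plain CPM, with totals over matched genes and at 8-fold, and 3 with upper-quartile scaling and at 2-fold. Over all matched genes, a minimum of 2 CPM in both libraries gave 814 lower in dog than in armadillo, 855 higher and 783 lower in dog than in platypus, and 842 higher in armadillo than in platypus. At 2-fold 1895 were higher and 2314 lower in dog than in armadillo, 1934 lower in dog than in platypus and 1594 lower in armadillo than in platypus. At 8-fold these were 369, 789, 681 and 469. Without genes at 0, 1337 were higher in dog and 1336 higher in armadillo than in platypus. The direction of BGN was tried with other scalings after the data were seen, and gave log2 folds of dog over platypus between -1.12 and -0.11. Depth limits platypus most, where 3 reads equal 1.60 normalised CPM.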

Other observations

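Leukocyte markers were matched mainly in dog and armadillo, with 2 measured in armadillo and platypus and 1 in dog and platypus. Markers of yolk sac or liver-type cells were few, with 1 measured in each pair. Of 7 leukocyte markers 5 were measured in dog and armadillo, with 0 called higher in dog and 4 lower. Over all matched genes 9.76% were called higher in dog and 15.2% lower. The macrophage gene CD68 stood at 1.29 normalised CPM in dog and 93.0 in armadillo. CSF1R stood at 7.02 in dog and 113 in armadillo, and CD74 at 548 in armadillo and 5.88 in platypus. Of 5 yolk sac and liver-type markers, APOB had 74 reads in dog and 1 in armadillo, TTR was listed at 0 in dog and platypus, and APOA1 had 19 reads in armadillo and was listed at 0 in platypus. Among housekeeping genes EEF1A1 stood at 20994 normalised CPM in armadillo and 16189 in platypus, and HSPA8 at 745 in armadillo and 10612 in platypus. EEF2 stood at 5523 in armadillo and 11045 in platypus, and ACTB was matched only in platypus, at 11743.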
